A study of Homo sapiens with 6 samples.

Results

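Complement genes of keratinocytes were followed in the human cell line HaCaT, keratinocytes that became immortal in culture without a transforming agent. The set held 9 genes, C1R, C1S, C3, C5, CFB, CFI, CD46, CD55 and CD59, found by gene name among 29176 genes of the expression table, and all 9 were measured well enough to be tested. They were chosen by name as the complement of keratinocytes, with their counts and fold changes in this same comparison already known, so the changes below describe these genes, and the number of them that changed supports nothing by itself. RNA had been sequenced from 6 samples, extracted after 48 hours. All 6 had received M5, the stimulus that the study uses to model psoriasis in culture, together with a small interfering RNA. In 3 samples (si-NC+M5) this was the control si-NC, and in the other 3 (si-eIF4E+M5) it was directed at EIF4E, whose protein binds the 5′ cap of messenger RNAs at the start of translation. Cells without M5 are not analysed here, so what M5 itself does to these genes is not described.

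Complement is a cascade of secreted proteases and their substrates that tags and lyses foreign or damaged cells. The classical pathway starts with C1R and C1S, the serine proteases of the C1 complex, and the alternative pathway uses factor B (CFB), and both lead to cleavage of C3 and then of C5. Host cells are shielded by factor I (CFI), which degrades the activated form of C3, by CD46, its membrane cofactor, by CD55, which takes the convertases apart, and by CD59, which blocks the membrane attack complex. Keratinocytes are among the cells outside the liver that make several of these proteins, and inflammatory cytokines are known to induce C3 and CFB in them.

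In the cells with the small interfering RNA against EIF4E, transcripts of C1R, CFI, C5 and C1S were higher and those of CD55 were lower, while C3, CFB, CD46 and CD59 did not pass the test. The rises ran from 1.35-fold for C1S to 1.77-fold for C1R, and CD55 was at 59.2% of its control level. Thus 4 of the 9 genes were called higher and 1 lower, at an adjusted p under 0.05 in the quasi-likelihood test of edgeR, with p-values adjusted by Benjamini and Hochberg's method over all 18022 genes tested. Among all tested genes 15.8% were called, 7.44% higher and 8.40% lower, and since the genes had been picked with this comparison known, nothing is read from the difference. Values of the groups did not overlap for the same 5 genes, against 33.8% of all tested genes. The median log2 fold change of the 9 genes was 0.13 and that of all tested genes was -0.01.

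Promoters of 4 of the genes are shown because their transcripts stand for the patterns found, 2 that were higher (C1R and CFI), 1 that was lower (CD55) and 1 of the inflammation-inducible genes that did not pass (CFB). Each window runs from 250 bases before to 50 bases after a transcription start of RefSeq (GRCh38.p14) and is written 5′ to 3′ on the strand of the gene. The windows lie at chr12:7092396-7092695 (minus strand) for C1R, chr4:109801950-109802249 (minus strand) for CFI, chr1:207321428-207321727 (plus strand) for CD55 and chr6:31945845-31946144 (plus strand) for CFB. Capitals mark matches on either strand to the core of interferon regulatory factor sites (AANNGAAA), to STAT sites (TTCNNNGAA), to the core of cyclic AMP response elements (TGACG), to the AP-1 site (TGANTCA), to a kappaB pattern (GGGRNNYYCC), to the TATA box (TATAAA) and to the CCAAT box (CCAAT). N stands for any base, R for A or G and Y for C or T.
C1R: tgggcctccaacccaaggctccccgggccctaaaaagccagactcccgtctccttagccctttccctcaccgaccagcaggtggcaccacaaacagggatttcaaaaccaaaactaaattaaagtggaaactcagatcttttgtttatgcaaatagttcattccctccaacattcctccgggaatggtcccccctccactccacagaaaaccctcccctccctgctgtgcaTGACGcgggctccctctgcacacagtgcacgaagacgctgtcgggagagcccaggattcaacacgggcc
CFI: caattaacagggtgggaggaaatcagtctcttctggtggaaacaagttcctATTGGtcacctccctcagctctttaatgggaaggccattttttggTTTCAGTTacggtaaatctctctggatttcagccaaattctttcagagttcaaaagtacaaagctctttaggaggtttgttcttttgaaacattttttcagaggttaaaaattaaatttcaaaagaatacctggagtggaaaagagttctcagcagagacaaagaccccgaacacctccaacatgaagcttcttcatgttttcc
CD55: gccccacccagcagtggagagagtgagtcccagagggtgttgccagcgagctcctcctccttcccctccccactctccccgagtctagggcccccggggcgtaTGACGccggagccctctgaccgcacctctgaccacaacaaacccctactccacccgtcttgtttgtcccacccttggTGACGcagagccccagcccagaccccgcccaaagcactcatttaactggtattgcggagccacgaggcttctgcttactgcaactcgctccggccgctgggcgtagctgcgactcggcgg
CFB: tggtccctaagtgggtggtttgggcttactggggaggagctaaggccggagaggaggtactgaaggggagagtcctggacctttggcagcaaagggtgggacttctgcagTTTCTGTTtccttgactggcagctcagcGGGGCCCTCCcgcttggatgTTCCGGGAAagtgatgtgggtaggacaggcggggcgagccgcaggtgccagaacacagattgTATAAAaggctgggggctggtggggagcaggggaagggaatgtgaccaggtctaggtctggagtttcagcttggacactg

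The CFB window held the most kinds of match, with an interferon regulatory factor core at position -140 (first base, counted from the start), a kappaB match at -112, a STAT match (TTCCGGGAA) at -92 and a TATA box at -30. The first 3 are matches to patterns of factors that act downstream of interferons, tumour necrosis factor and related cytokines. The CFI window had an interferon regulatory factor core (TTTCAGTT) at -154 and a CCAAT box, written ATTGG on this strand, at -199. The C1R window had a single TGACG at -19, and the CD55 window had the same letters at -147 and at -70. Windows not shown were those of CD59, CD46 and C5. That of CD59 held an interferon regulatory factor core at -236, a CCAAT box (ATTGG) at -206 and a STAT match at -184. That of CD46 held TGACG at -230 and a CCAAT box (ATTGG) at -46. That of C5 held a CCAAT box at -113 and no other match. Among 34796 RefSeq windows of the same length, 22.9% held the interferon regulatory factor core, 7.67% the STAT site, 24.5% TGACG, 7.72% TGANTCA, 11.3% the kappaB pattern, 11.6% TATAAA and 34.6% CCAAT. Windows were at hand for 7 of the 9 genes, C1S and C3 being the other two, and where a gene had several, the one nearest to its start in the expression table was taken. Positions count from the RefSeq start, which lay inside the gene of the expression table by 445 bases for CFB, 180 for CFI, 146 for CD55 and 48 for C1R. The whole CFB window thus lies within CFB as that table places it. No matches overlapped one another in the windows shown. A match is a run of letters and does not show that a factor binds there.

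Library totals were between 71044961 and 74246501 counts. CPM is the unit of counts after scaling each library to one depth. By the totals alone, 3 counts, the most that a listed 0 leaves room for by counting error, came to at most 0.042 CPM. The CPM levels below also carry a scaling factor per library, from 0.9804 to 1.0391, which this limit leaves out. EIF4E was at 41.9% of its control level and lower in all 3 libraries of its knockdown. Cell identity was checked on marker genes. All 10 keratinocyte markers were found, with a summed level of 3512 to 3560 FPKM (a level that also allows for transcript length) in the control libraries and 3503 to 3743 FPKM in the knockdown libraries. SFN alone made up a large part of this sum, with means of 1720 and 1651 FPKM. Of these markers 3 were called higher (KRT5, DSG3 and PKP1) and 2 lower (KRT17 and ITGA6), where 7.44% of all tested genes were called higher and 8.40% lower. Nothing in the labels says whether the replicates were separate cultures. The p-values thus speak of the spread among these 6 samples, part or all of which may be technical. In bulk RNA, a change in the share of cells of one kind and a change of RNA per cell cannot be told apart.

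Compared per length of transcript, the control cells ranked the genes as CFB, CD59, C3, CD46, C1S, C1R, CFI, CD55 and C5. The mean level fell from 68.4 ± 0.83 FPKM (SD, n = 3 here and below) for CFB to 1.21 ± 0.13 FPKM for C5, a range of 56.6-fold. Only 1.77% of the genes of the table had a higher mean control level than CFB. Neighbours in this order were separated in every control library except CD59 and C3, at 49.95 to 53.6 FPKM and 42.4 to 52.3 FPKM. In the knockdown cells C1S, at 42.3 to 47.6 FPKM, stood above CD46, at 37.1 to 39.99 FPKM, which reverses their control order. CD55 and C5, which were apart in the control cells at 3.21 ± 0.16 and 1.21 ± 0.13 FPKM, met in the knockdown cells at 1.93 ± 0.32 and 1.86 ± 0.21 FPKM.

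**Figure D1:**
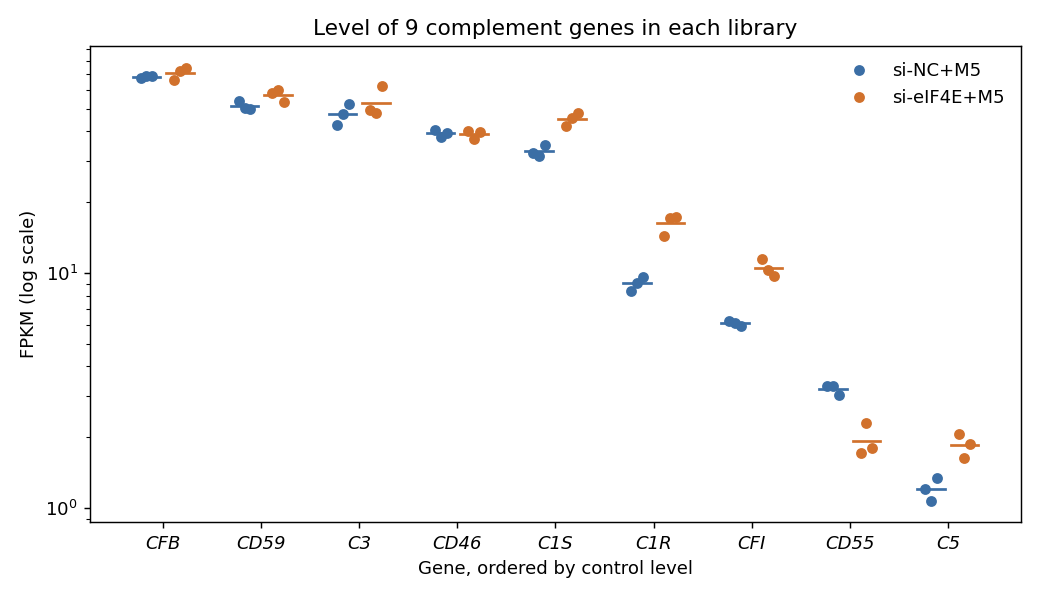
Level of each of the 9 genes in FPKM on a log scale, with 1 point per library and a bar at the group mean of 3 libraries, in blue for si-NC+M5 and orange for si-eIF4E+M5. The points of the groups are apart for C1S, C1R, CFI, CD55 and C5, and CFB stays the most abundant at 68.4 and 71.04 FPKM.

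The initiating proteases were both higher. C1R (ENSG00000159403, minus strand of chromosome 12, 7080214 to 7092493 in GRCh38) encodes the protease that activates itself and then C1S. Its normalised level was 50.8, 56.1 and 59.4 CPM in the 3 controls and 84.4, 105 and 105 CPM after knockdown. Every knockdown library lay above every control library. The means were 55.4 ± 4.35 and 97.9 ± 11.7 CPM, a log2 fold change of 0.82 ± 0.09 (SE; adjusted p = 5.5e-04 in edgeR). In the table's coordinates C1R shares 2907 bases with C1RL, a related protease gene on the same strand, which was at 83.5 and 93.6 CPM and was not called (0.17 ± 0.06, adjusted p = 0.079 in edgeR). Its groups did not overlap, and it was called higher in 5 alternatives, by upper-quartile scaling, DESeq2, limma with either pseudocount and a filter at 1 FPKM (adjusted p = 0.027 to 0.035). With the counts of both genes summed the log2 fold change was 0.46 and the call stayed (adjusted p = 0.0018 in edgeR).

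C1S (ENSG00000182326, plus strand of chromosome 12, 6988259 to 7071032) encodes the protease that cleaves C4 and C2. Control libraries had 219, 216 and 240.5 CPM and knockdown libraries 276, 310.4 and 323 CPM. The groups did not overlap, and replicate 3 was the highest library of each. The means were 225 ± 13.2 and 303 ± 24.0 CPM and the log2 fold change was 0.43 ± 0.07 (adjusted p = 0.0036 in edgeR). Its gene body overlaps that of LPCAT3, a phospholipid acyltransferase gene on the opposite strand, over 30219 bases. LPCAT3 was higher as well (70.3 and 106 CPM, log2 fold change 0.59 ± 0.07, adjusted p = 7.0e-04 in edgeR), and since the use of strand in counting is not given, reads of the overlap cannot be told apart. Summed with LPCAT3, C1S had a log2 fold change of 0.47.

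C1R and C1S lie end to end, 9182 bases apart. By the counts as deposited, the rise was not equal in the pair. With overlapping genes added, C1RL to C1R and LPCAT3 to C1S, the log2 fold changes were 0.46 and 0.47. The ratio of C1R to C1S in FPKM was 0.258, 0.289 and 0.275 in the control libraries and 0.340, 0.375 and 0.361 in the knockdown libraries, so that C1R came nearer to C1S in each of them. In level rather than ratio C1S gained more, by 12.25 FPKM against 7.23 FPKM for C1R. Beyond the pair, EMG1, a ribosome biogenesis gene on the C1S side, was lower (-0.22 ± 0.06, adjusted p = 0.040 in edgeR), and RBP5 on the C1R side was at 5.79 and 6.13 CPM and not called.

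Of the central components C5 was called higher, and C3 and CFB were not called. C3 (ENSG00000125730, minus strand of chromosome 19, 6677704 to 6730562), on which all pathways converge, had 368, 420.4 and 459.9 CPM with si-NC and 411, 416 and 541 CPM with si-eIF4E. The ranges overlapped, and replicate 3 was the highest library in either group. Means were 416 ± 46.2 and 456 ± 73.4 CPM, the log2 fold change was 0.13 ± 0.11 and its 95% interval of -0.12 to 0.38 holds both a small fall and a 1.31-fold rise (adjusted p = 0.50 in edgeR). Without si-eIF4E+M5 replicate 3 the value was -0.0088. With a coefficient of variation of 11.1% among control and 16.1% among knockdown libraries, C3 was the least even of the abundant genes here, where that of CD46 was 2.40% and 3.16%. Its neighbour TNFSF14, a cytokine of the tumour necrosis factor family, was lower (4.45 and 2.83 CPM, -0.65 ± 0.18, adjusted p = 0.035 in edgeR), and TRIP10 on the other side was not called. C3 shares 649 bases with GPR108, and with those counts added its log2 fold change was again 0.13.

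CFB (ENSG00000243649, plus strand of chromosome 6, 31945650 to 31952084, in the major histocompatibility region) encodes the protease of the alternative C3 convertase. Control libraries gave 333.5, 347 and 346 CPM, and those of the knockdown 315, 361 and 370.2 CPM. The knockdown libraries lay on both sides of the control libraries. The log2 fold change was 0.03 ± 0.07 with a 95% interval of -0.12 to 0.18 (adjusted p = 0.85 in edgeR), or 0.92 to 1.13 times the control level. Without si-eIF4E+M5 replicate 3 the value was -0.019. Its neighbour C2, the classical counterpart of factor B, was near 1 CPM or below (0.67 and 0.83 CPM) and was not called. NELFE, 3 bases from CFB, and ZBTB12 on the other side were not called either (adjusted p = 0.84 and 0.51 in edgeR).

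C5 (ENSG00000106804, minus strand of chromosome 9, 120952335 to 121050275) encodes the precursor of the anaphylatoxin C5a and of the first protein of the membrane attack complex. It had 588, 525 and 684 counts in the control libraries, the lowest of the 9 genes there, and 1020, 829 and 941 in the knockdown libraries. In CPM these were 8.26, 7.51 and 9.34 against 13.6, 11.3 and 12.8, and the groups did not overlap. The log2 fold change was 0.59 ± 0.13 (adjusted p = 0.012 in edgeR), and without si-NC+M5 replicate 2 it was 0.51 and no longer called (adjusted p = 0.053).

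The neighbours of C5 moved in opposite directions. TRAF1, an adaptor of tumour necrosis factor receptors that lies 25539 bases from the end of C5, was lower (35.5 and 22.4 CPM, -0.67 ± 0.12, adjusted p = 0.0048 in edgeR). CNTRL, a centrosome gene on the other side and on the opposite strand, was higher (21.5 and 33.98 CPM, 0.66 ± 0.10, adjusted p = 0.0020 in edgeR). RefSeq places a start of C5 at position 121074865 of chromosome 9, which is 2 bases from the start of CNTRL in the expression table, while the table ends C5 at 121050275.

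Factor I showed the most even rise. CFI (ENSG00000205403, minus strand of chromosome 4, 109740694 to 109802179) had 31.8, 32.0 and 30.8 CPM in control cells and 56.3, 52.8 and 49.8 CPM in knockdown cells. The control libraries agreed within a coefficient of variation of 1.88%, and the lowest knockdown library was far above them. Means were 31.5 ± 0.59 and 53.0 ± 3.29 CPM and the log2 fold change was 0.75 ± 0.07 (adjusted p = 2.1e-04 in edgeR), which ranked it 54th of all tested genes by adjusted p. Relative to C3, its substrate's gene, the level of CFI was 0.147, 0.129 and 0.114 with si-NC and 0.233, 0.216 and 0.157 with si-eIF4E, as a ratio of FPKM. All knockdown ratios were above all control ratios, though the one of replicate 3, the library with the most C3, was close to the control range. Of the nearest genes, PLA2G12A, a secreted phospholipase gene, was slightly higher (0.31 ± 0.09, adjusted p = 0.044 in edgeR), and GAR1, a gene of small nucleolar ribonucleoproteins, was not called (-0.21 ± 0.09).

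**Figure D2:**
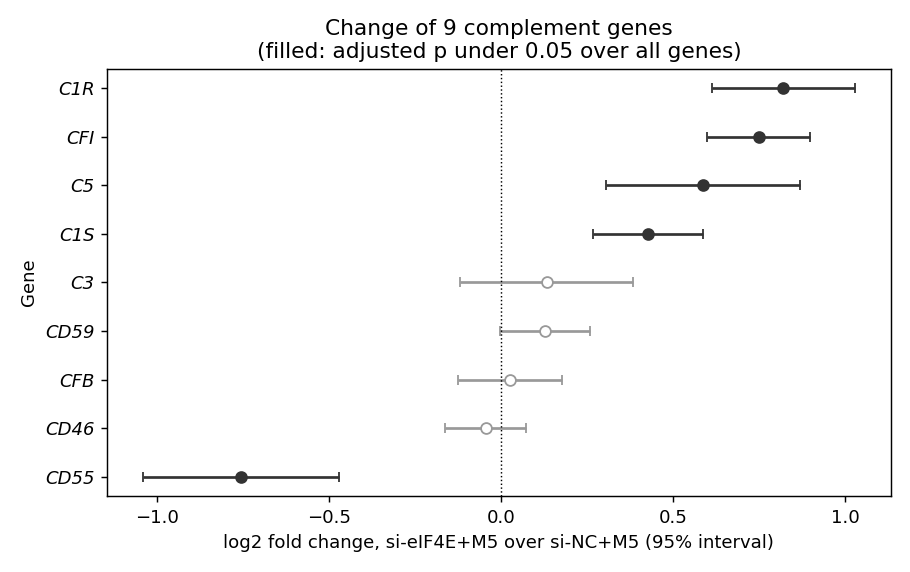
Log2 fold change (si-eIF4E+M5 relative to the si-NC+M5 control) for each gene with its 95% interval from edgeR's quasi-likelihood fit of 3 against 3 libraries. Filled points passed an adjusted p of 0.05 over all tested genes: C1R at 0.82, CFI at 0.75, C5 at 0.59, C1S at 0.43 and CD55 at -0.76, while the intervals of the 4 open points include 0.

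The membrane regulators were not shifted together. CD55 (ENSG00000196352, plus strand of chromosome 1, 207321532 to 207386804), the decay-accelerating factor, had 19.9, 20.3 and 18.5 CPM with si-NC and 9.998, 13.9 and 10.8 CPM with si-eIF4E. The groups did not overlap, and replicate 2 was the highest of the knockdown libraries. Means were 19.6 ± 0.95 and 11.6 ± 2.06 CPM and the log2 fold change was -0.76 ± 0.13 (adjusted p = 0.0037 in edgeR). It was thus the only one of the 9 genes that was called lower, from a control level of 3.21 FPKM that was the lowest of the membrane regulators. C4BPB, a neighbour of CD55, was at 0.18 and 0.058 CPM and was not called (adjusted p = 0.31 in edgeR).

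CD46 (ENSG00000117335, plus strand of chromosome 1, 207752054 to 207795513), the membrane cofactor of factor I, belongs to the same cluster of complement regulators as CD55 and lies 365250 bases from it. Its controls had 371, 353 and 363 CPM, against 352, 339.95 and 362 CPM after knockdown. The groups overlapped in a narrow band. The log2 fold change was -0.04 ± 0.05, with a 95% interval of -0.16 to 0.07 (adjusted p = 0.65 in edgeR), which does not reach the -0.47 nearest to 0 in the interval of CD55. The ratio of CD55 to CD46 in FPKM was 0.0813, 0.0868 and 0.0771 in the control libraries and 0.0429, 0.0619 and 0.0452 in the knockdown libraries. PLXNA2, the neighbour of CD46 on the side away from CD55, was not called (-0.24 ± 0.08, adjusted p = 0.059 in edgeR).

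CD59 (ENSG00000085063, minus strand of chromosome 11, 33703010 to 33736425), the inhibitor of the membrane attack complex, was the most abundant membrane regulator. Its level was 591, 568 and 559 CPM in control cells and 623, 664 and 591 CPM in knockdown cells. The groups overlapped only in that the highest control and the lowest knockdown library were level. The log2 fold change of 0.13 ± 0.06 did not pass (95% interval -0.00 to 0.26, adjusted p = 0.19 in edgeR). FBXO3, the next gene in the direction of its start, was higher (0.26 ± 0.07, adjusted p = 0.034 in edgeR). C11orf91 on the other side and AL049629, which shares 19447 bases with CD59, were not called (adjusted p = 0.58 and 0.59 in edgeR). Against CD46 the level of CD59 was 1.32, 1.33 and 1.27 in the control libraries and 1.46, 1.61 and 1.35 in the knockdown libraries, as ratios of FPKM that did not overlap.

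**Figure D3:**
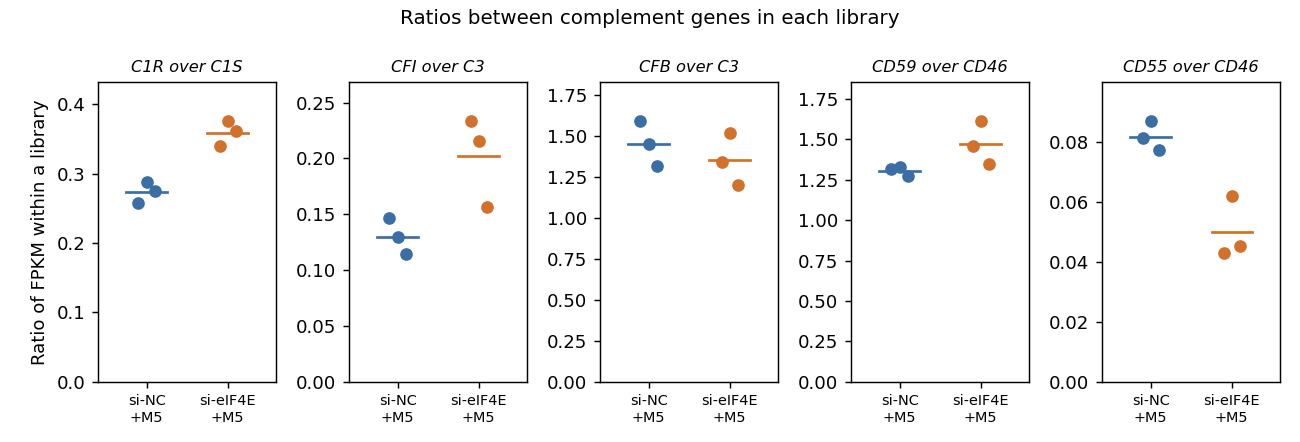
Ratio of FPKM between pairs of complement genes within each library, with 1 point per library and a bar at the mean of 3, each axis starting at 0. The ratio of C1R to C1S went from a mean of 0.274 to 0.359 and that of CD55 to CD46 fell below its control range of 0.0771 to 0.0868 in each knockdown library, while the ratios of CFB to C3, with means of 1.45 and 1.35, overlapped.

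Libraries of 1 group also differed among themselves. After the group means were removed, C1R went with CFB (Pearson r = 0.93) and with C1S (0.89) over the 6 libraries, and CFI went against C1S (-0.92) and CFB (-0.89). These are descriptions over 6 libraries that share depth and preparation, with no test. By total pattern, the genes of at least 5 FPKM most like CFB among 6772 were UBA1, RPSAP58 and AC139769 (r = 0.98, 0.98 and 0.97), and those most like CD59 were ATP5PF, TIPRL and TMSB10 (r = 0.99 each). None of these 6 genes was called, which their likeness to the uncalled CFB and CD59 largely sets in advance. In turn, 16 and 36 genes had an r over 0.95 with CFB and CD59.

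Few of the other genes of the pathway passed the test, and most of them had low counts. Of 54 further complement genes, 28 had a row in the table, 22 passed the filter on low counts, and 6 reached a mean of 1 FPKM in either group. The remaining 26 are not analysed here. Of the 22, 1 was called higher and 0 lower by edgeR (4 and 0 at an unadjusted p under 0.05). The share of all genes under that unadjusted threshold was not counted, so nothing is read from the 4. DESeq2 called 3 higher and 0 lower of the 16 it gave an adjusted p. Over all genes edgeR called 15.8% and DESeq2 22.0% of those each tested. For DESeq2, 11.4% of its tested genes were higher and 10.7% lower. The median log2 fold change was -0.08. Groups did not overlap for 5 of the 22, against 33.8% of all tested genes.

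The called gene was CLU, encoding clusterin, a soluble inhibitor of the terminal complex, at 6.91 ± 0.72 and 8.72 ± 0.31 FPKM (log2 fold change 0.31 ± 0.08, adjusted p = 0.026 in edgeR). Its call was lost without any filter on low counts (adjusted p = 0.084) and when any library other than si-NC+M5 replicate 3 was left out (adjusted p up to 0.10). C1QBP, a mostly mitochondrial protein that binds C1q (60.6 and 58.9 FPKM), and THBD, thrombomodulin (31.4 and 28.4 FPKM), were abundant and not called. C8G, a subunit of the membrane attack complex, and CFD, the protease that activates factor B, were at 1.05 and 0.72 FPKM in the control cells and 0.85 and 0.58 FPKM in the knockdown cells, without a call. C3AR1 and C5AR1, the receptors for the anaphylatoxins and chosen here after their values were seen, stayed below 1 FPKM (0.15 and 0.25 FPKM, 0.69 and 0.47 FPKM) and were not called.

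**Figure D4:**
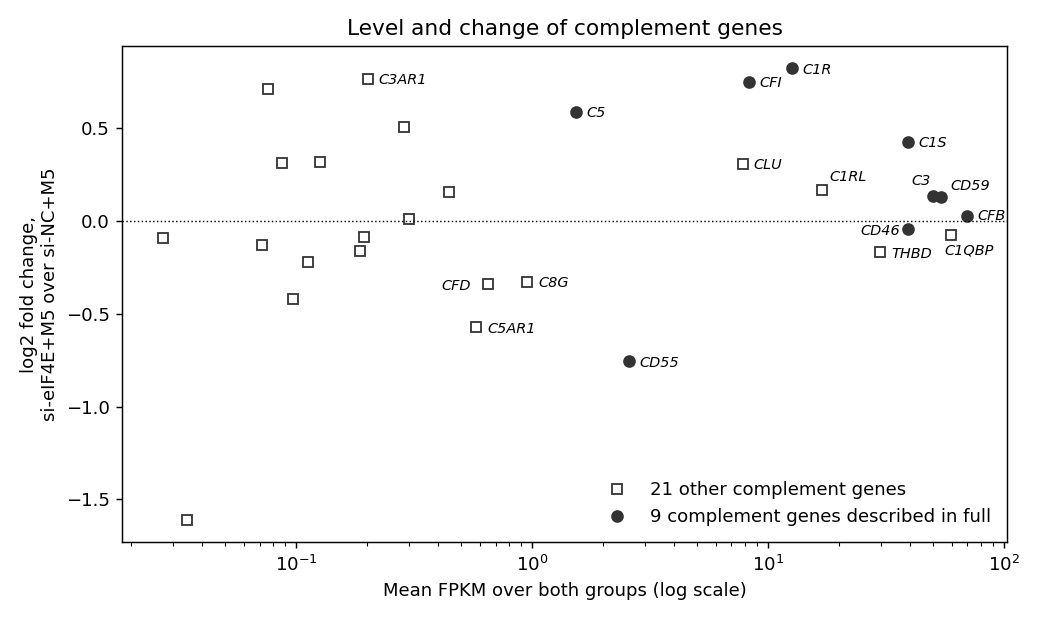
Log2 fold change (si-eIF4E+M5 relative to the si-NC+M5 control) against mean FPKM over both groups (log scale), with filled circles for the 9 genes described in full and open squares for 21 of the 22 other complement genes tested. Above 1 FPKM the other genes shown lie within 0.31 of 0, and C1R, CFI, C5, C1S and CD55 lie farther out.

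Genes known to induce complement or to cleave its proteins were measured beside it. Of 25 tested, 6 were called higher and 5 lower, with a median log2 fold change of 0.02, where 7.44% of all tested genes were called higher and 8.40% lower. Of 9 receptor genes 3 were called higher and 3 lower. IL22RA1 (0.75 ± 0.15) and IL17RC (0.56 ± 0.10) were higher, and OSMR (-0.31 ± 0.08) and IL6ST (-0.26 ± 0.07), which together form the oncostatin M receptor, were lower (adjusted p = 0.0078, 0.0052, 0.029 and 0.032 in edgeR). The third lower receptor gene, IL1R1, was the farthest from 0 of the list (-1.81 ± 0.33, adjusted p = 0.0050 in edgeR) but at only 0.505 and 0.144 FPKM, and is named here after its values were seen. OSMR and IL6ST lost their calls in 6 and 7 of the alternatives, where their adjusted p rose as far as 0.11 and 0.12. Of 10 transcription factor genes 2 were called, both higher, CEBPD (0.60 ± 0.10) and STAT3 (0.37 ± 0.06; adjusted p = 0.0035 and 0.0031 in edgeR). Of 6 protease genes 1 was called higher and 2 lower. PLAU, the urokinase gene, fell by 0.41 ± 0.07 and CTSB, cathepsin B, by 0.27 ± 0.05 on the log2 scale (adjusted p = 0.0046 and 0.0071 in edgeR). Whether any of these bears on the complement genes was not tested.

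Markers of other cells that make complement were low. The 5 fibroblast markers with a row summed to 0.347 to 0.405 FPKM in control and 0.731 to 1.04 FPKM in knockdown libraries. Their sum moved in the direction of C1R and C1S, as did the leukocyte sum and SERPINA1 below. No leukocyte marker was called. CD14 and CSF1R had higher means but overlapping groups (adjusted p = 0.21 and 0.26 in edgeR). CD163, too low to be tested, went the other way, with means of 0.057 CPM in control and 0 CPM in knockdown libraries. The endothelial and melanocyte sums overlapped between the groups. A part of other cells in the change of C1R and C1S was not tested. The fibroblast rise came from COL1A1 (1.07 ± 0.20) and COL3A1 (2.09 ± 0.38; adjusted p = 0.0060 and 0.0051 in edgeR). COL1A2, PDGFRB and LUM went the other way, with means of 0.113, 0.073 and 0.019 CPM in control and 0.018, 0.018 and 0 CPM in knockdown libraries. These had at most 16 counts in any library. The 3 leukocyte markers with a row summed to 0.429 to 0.709 and 0.741 to 1.35 FPKM, the 3 endothelial ones to 0.129 to 0.501 and 0.264 to 0.390 FPKM and the 3 melanocyte ones to 0.288 to 0.542 and 0.450 to 0.525 FPKM. Of the hepatocyte markers ALB had 0 counts in 5 of 6 libraries and 8 in the other, and SERPINA1, which epithelial cells also make, was at 2.08 and 2.52 FPKM without a call.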

How the data were processed

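RNA from 6 samples of HaCaT cells was sequenced, 3 per group. Cutadapt 1.9, FastQC and the build GRCh38 are listed, per the submitters' processing notes. Aligner, counting tool, annotation and use of strand: not given in the sources used here. Per gene, the authors deposited whole-number counts beside FPKM values. For each of 9940 genes with over 500 counts, FPKM followed the counts within 1% after scaling per library. Same-group libraries were compared as possible duplicates, and each pair differed beyond counting noise (chi-squared per degree of freedom 23.4 to 28.3).

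The test was run on the deposited counts (edgeR 4.0.16 under R 4.3.3). Of 29176 genes, filterByExpr at a minimum of 10 counts kept 18022, followed by TMM scaling, a quasi-likelihood fit with the group as its term, a two-sided test and Benjamini-Hochberg adjustment over all tested genes. Levels are TMM-scaled CPM or the authors' FPKM, as mean ± SD over 3 libraries. Alternatives were median-ratio and upper-quartile scaling, DESeq2 1.42.0, limma 3.58.1 on log2(FPKM + 1) and log2(FPKM + 0.1), other filters on low values, a robust spread, a threshold of 0.01, the replicate number as a block, each library left out, and counts summed with overlapping genes (those of C3 and CD59 chosen after seeing the data). Precision covers counting error and the spread between libraries only.

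The members, the gene lists and the tests were chosen with earlier results of these data known. Named are all 9 members, called genes of the wider complement list with at least 1 FPKM and its 6 most abundant uncalled genes (1 of them not reported here), up to 4 called inducer or protease genes per direction with at least 1 FPKM in the higher group, nearest coding neighbours and genes of most similar pattern. Gene type came from GENCODE v29, coordinates from the deposited table and promoters from RefSeq (GRCh38.p14). Samples were not paired by the labels.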

Additional observations from a re-analysis of the deposited data

How the results depend on the processing

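The count of 5 called complement genes was 4 or 5 in all settings tried: 4 without si-NC+M5 replicate 2, where C5 was lost, and 4 at an adjusted p of 0.01. Of 141 alternative values of the 9 genes, 138 kept direction and call, and C5 was the 1 that lost its call. The other 2, both uncalled, changed sign without si-eIF4E+M5 replicate 3: C3 at -0.0088 and CFB at -0.019. With a library left out C3 ranged from -0.0088 to 0.22, CFB from -0.019 to 0.10, and CFD, also uncalled, from -0.61 to 0.18, the last without si-NC+M5 replicate 2. The cause was not tested.

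The wider complement list had 1 called gene. It had 3 with upper-quartile scaling, DESeq2 and limma with either pseudocount, and 2 when genes needed a mean of 1 FPKM. It had 0 at an adjusted p of 0.01 and 0 with no filter. With no filter, edgeR gave 4 at an unadjusted p under 0.05, for which no share of all genes was counted. With a library left out it had 0 to 1. All genes called numbered 2853, and 1818 with no filter, 1300 at 0.01 and 1598 to 2283 with a library left out.

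With the replicate block 5 complement genes, 1 gene of the wider list and 3414 of all genes were called. Deviations of same-numbered samples correlated at 0.098, 0.067 and 0.154, not over 0.1 in each, so the numbers were not taken as pairs. Each sample did correlate best with its own number. Counts were lowest for C5, at 525 to 1020 per library, and CD55, at 749 to 1419.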
